A study of Arabidopsis thaliana with 12 samples.

Results

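The 50 conserved miRNA precursors described here are those of the families from miR156 to miR408 for which both arms, 5p and 3p, were counted. They were found by name among 93 precursors with both arms and 427 mature miRNAs, and they belong to 25 families. All 50 held at least 20 counts over the libraries, the lowest being miR398a with 103, miR169f with 144 and miR167c with 196, and the highest miR166a with 588937. The counts come from 4 small RNA libraries of Arabidopsis thaliana inflorescences of the Col ecotype, 2 from wild-type plants and 2 from plants with an artificial miRNA directed against SEAP1 (amiR-SEAP1). Such a transgene yields a designed small RNA that guides the cleavage of a chosen transcript. Both genotypes were grown alike, with no treatment named. The labels give no plant age, promoter, number of transgenic lines or pooling, nor whether the replicates were grown or harvested apart. The p-values therefore measure the spread between these libraries, which may be technical.

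A plant miRNA is cut by a Dicer enzyme from a folded precursor as a duplex of both arms. One strand, the guide, is kept by an Argonaute protein and directs it to complementary transcripts, and the other, the star strand, is usually degraded. Both arms come from the same transcript, so their ratio sets the strands of a duplex side by side within a library. Which arm is the guide was taken from general knowledge of each family, not from these counts. It was the 5p arm in 29 precursors and the 3p arm in 21.

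Counts on miRNAs summed to 2160372 and 2043025 for wild type and to 1436816 and 1020947 for amiR-SEAP1, and the 50 pairs held 48.7% to 51.6% of them. The counts of some family members were identical and no alignment was set aside as not unique, so a read that fits several loci appears to be counted at each. The guide arm of 27 precursors had the same counts, within 5% or 2 counts in every library, as another row, and so did the star arm of 8. Only 21 pairs had neither arm shared by this measure, among them miR168a and miR168b, whose guide counts missed the limit narrowly. For the pairs with a shared arm, the guide, the star or both may include reads that fit several loci. In the separate mRNA libraries of the study, 4 per genotype, the flower genes AP1, AP3, PI, AG, SEP3 and CRC lay between 29.5 and 198.1 FPKM in every library. The root hair regulator RHD6 lay between 0 and 0.0337 FPKM. COBL9, the other root hair gene examined, was detected in every mRNA library, at up to 2.98 FPKM, so the root hair genes were not uniformly near 0. In bulk tissue, fewer cells of a type and less RNA per cell cannot be told apart.

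The annotated guide was the more abundant arm in 42 of the 50 precursors, and the star share, the star arm as a percentage of the counts of both arms, spanned more than 3 orders of magnitude. The star share stayed under 5% in all 4 libraries for 20 precursors. The lowest was that of miR166e, whose guide limits the HD-ZIP III genes of leaf and vascular polarity. The miR166e star had 86 and 116 counts in wild type and 31 and 144 in amiR-SEAP1, against 184859, 183661, 119978 and 79575 for the guide. The miR166e guide shared its counts with 6 other miR166 rows, and its star shared them with none. Its share may therefore set its own star against guide reads that fit several loci. miR168b, which targets the Argonaute gene AGO1, had 16 and 12 star counts in wild type and 9 and 14 in amiR-SEAP1, beside 16447, 18204, 5798 and 6429 guide counts. Its paralogue miR168a, with the same target, had a star share of 27.1% ± 6.70 in wild type and 35.2% ± 5.89 in amiR-SEAP1 (SD, n = 2). The guide count of miR168a was 1.04 to 1.07 times that of miR168b, while their star counts in the first wild-type library were 7964 and 16. The guides thus missed the 5% limit for shared counts only narrowly. The guide count of miR168b may include reads that also fit miR168a, which was not tested.

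**Figure D1:**
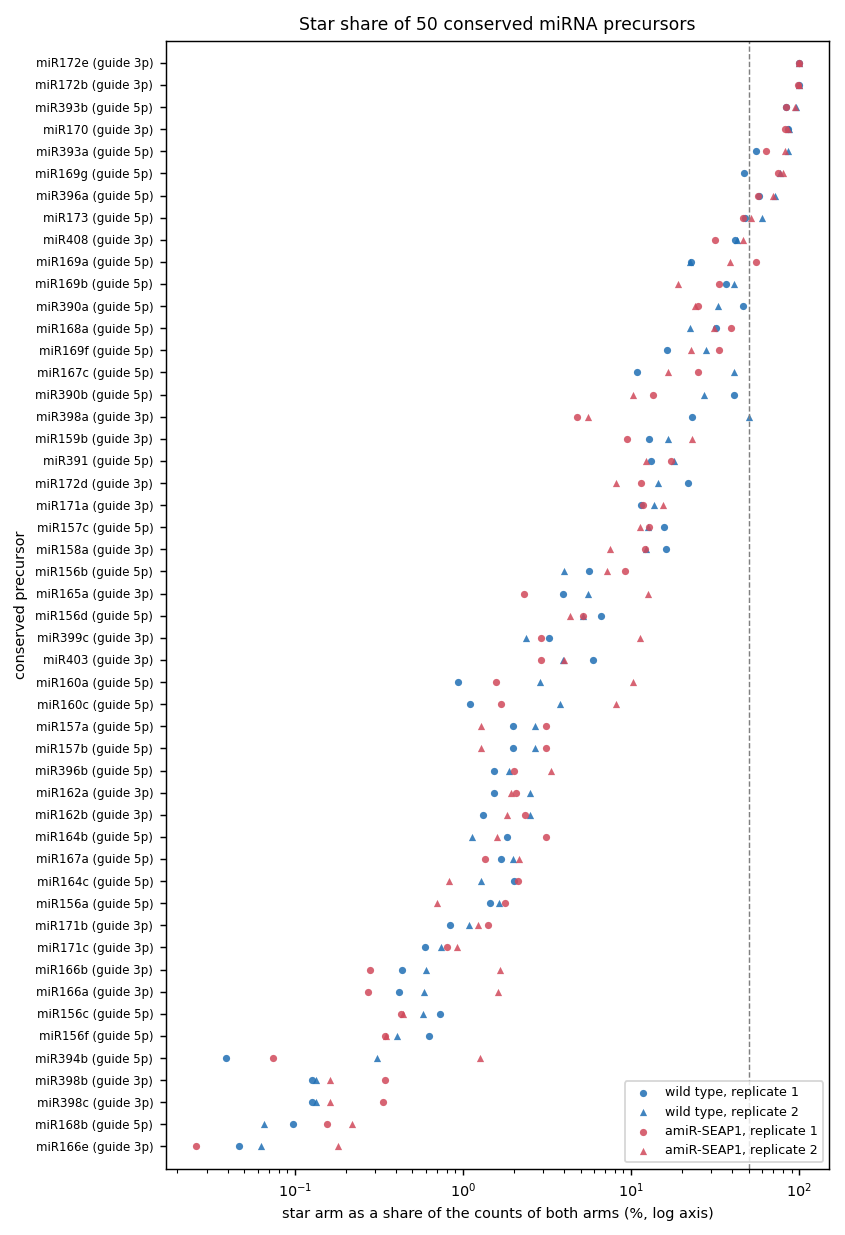
Star arm as a percentage of the counts of both arms (log axis) for each of the 50 conserved precursors, ordered by their mean, with 1 point per library. The precursors range from miR166e, below 0.2% in every library, to miR172e, above 99% in every library, and the dashed line marks 50%. The miR166e guide shares its counts with other miR166 rows.

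In 8 precursors the star arm had the higher mean count, namely miR169g, miR170, miR172b, miR172e, miR173, miR393a, miR393b and miR396a. miR172, whose 3p guide represses AP2-type floral regulators, stood farthest from its annotation. miR172b had 6868 and 6112 counts of the 5p arm in wild type and 3099 and 3808 in amiR-SEAP1, but 57, 52, 38 and 38 counts of the 3p guide. The star share of miR172b was 99.2% ± 0.0145 in wild type and 98.9% ± 0.158 in amiR-SEAP1 (SD, n = 2), and that of miR172e was 99.9% in both genotypes. In miR172d the 3p guide was the larger arm, with a star share of 18.1% ± 5.05 and 9.75% ± 2.32. Of the 8 precursors, 6, all but miR169g and miR173, were above 50% in every library. These 6 may not all be separate measurements. The 5p arm of miR172b was 1.08 to 1.10 times that of miR172e, and the guides of miR393a and miR393b shared counts. The 5p star of miR170 shared counts with the 5p star of miR171a, so its excess over the miR170 guide may include reads that fit both loci. The miR172e guide had only 3 and 6 counts in wild type and 4 and 2 in amiR-SEAP1.

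miR393b, which guides the cleavage of auxin receptor transcripts such as TIR1, had a star share of 89.6% ± 9.02 in wild type and 88.7% ± 7.87 in amiR-SEAP1 (SD, n = 2). The star of its paralogue miR393a had 71, 70, 56 and 37 counts in the order wild-type replicates 1 and 2 and amiR-SEAP1 replicates 1 and 2, an order that holds for every run of 4 values below. The guide of miR393a had 58, 12, 32 and 8. The guide of miR393a was thus more than 3-fold higher in replicate 1 of both genotypes, whereas its star was nearly equal in wild type. miR396a, a regulator of GRF growth genes, had a star share of 64.6% ± 9.97 and 63.1% ± 9.30, but its paralogue miR396b only 1.69% ± 0.242 and 2.67% ± 0.937. miR170, which targets the HAM genes of the meristem, had 86.4% ± 1.10 and 83.7% ± 2.48, and its 5p arm held nearly the counts of the 5p arm of miR171a (21, 22, 11 and 11 counts fewer). miR173, which starts the production of trans-acting siRNAs from TAS1 and TAS2 transcripts, had almost equal arms, with star shares of 53.7% ± 8.71 and 49.1% ± 3.80. The nearly equal arms of miR173 did not separate the genotypes.

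Within families, the star share differed between precursors. The 5p arm of miR156a, b, c and f, which targets SPL genes of phase change, had 1901 or 1902 counts in wild-type replicate 1, while the star arms had 28, 113, 14 and 12. miR156d, the member with the most counts, had a star share of 5.89% ± 0.987 in wild type and 4.76% ± 0.603 in amiR-SEAP1 (SD, n = 2). miR157c, of the same target group, had 14.1% ± 2.13 and 12.0% ± 1.13, against 2.32% ± 0.489 and 2.19% ± 1.29 for miR157a. In the miR171 family the 3p guides of miR171b and miR171c shared counts, and that of miR171a was 1.89 to 2.65 times that of miR171b. The star share was 12.6% ± 1.62 for miR171a in wild type, 0.963% ± 0.171 for miR171b and 0.663% ± 0.103 for miR171c. The difference between miR171a and its paralogues exceeded the spread between the wild-type libraries. The miR171a star shared counts with the 5p arm of miR170, so its share may include reads that fit both loci. The guides of miR156a, b, c and f shared counts, as did those of miR171b and miR171c. Each of these star shares may therefore set a star against guide reads that fit several loci.

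For the arm ratio, edgeR's quasi-likelihood test called 0 of the 50 conserved precursors between the genotypes at a false discovery rate (FDR) of 0.05, and 0 of all 86 tested (0.0%). This test takes each library as its own control and asks whether the ratio of the arms differs. At an unadjusted p under 0.05, the star lay lower relative to the guide for miR390b and miR398a and higher for miR169a, and 5.81% of all pairs tested reached that level. DESeq2 called 1 conserved pair, miR390b, which was 1.16% of the 86 pairs. The median log2 change of star over guide was -0.03, 25 precursors were higher and 25 lower, and 41 of 50 lay within 1 log2 unit. The star share was lower in both amiR-SEAP1 libraries than in both wild-type libraries for 11 precursors and higher for 8, and it overlapped for 31. Shares that did not overlap were thus found in 19 of 50 conserved pairs and in 32.6% of the 86 pairs.

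**Figure D2:**
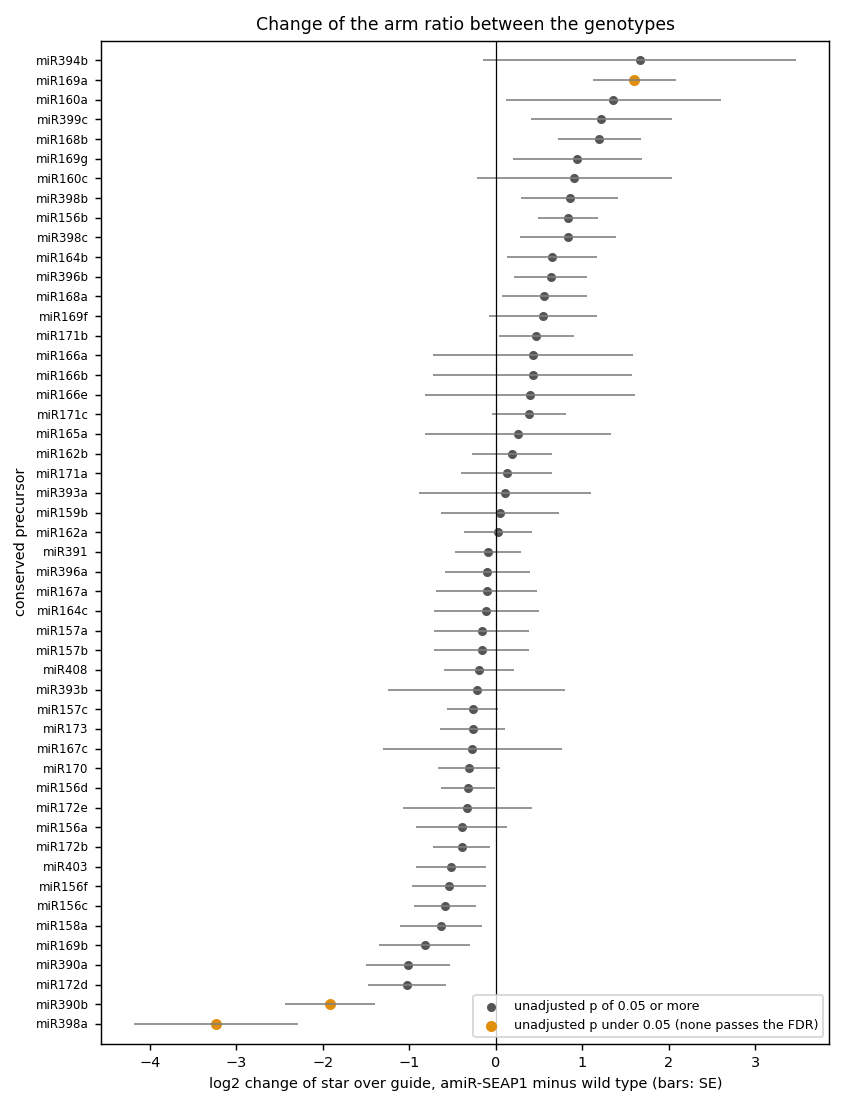
Log2 change of the star over the guide arm, amiR-SEAP1 minus wild type, with its SE from edgeR, for the 50 conserved precursors. miR398a (-3.23) and miR390b (-1.92) lie lowest, miR394b (1.67) and miR169a (1.60) highest, and no precursor passes the FDR.

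Summed over the 50 precursors, the star arms made up 6.38% and 6.38% of the counts of both arms in wild type, against 4.83% and 7.77% in amiR-SEAP1. The amiR-SEAP1 libraries therefore lay on either side of wild type. Shared counts entered these sums once for each precursor that holds them, as with the guides of miR166a, miR166b and miR166e. Without the miR165 and miR166 families, which hold most of the counts, the shares were 14.3% and 14.7% in wild type and 10.9% and 13.6% in amiR-SEAP1. The family sums gave the same picture as single precursors. Over 25 families, edgeR called 0 at the FDR and 1 at an unadjusted p under 0.05, miR390, with a log2 change of 5p over 3p of 1.34 ± 0.67 (SE, adjusted p = 0.878).

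Among families that act on RNA silencing genes, 8 precursors of 5 families, the miR390 star arms stood out. miR390 is loaded into AGO7 and cuts TAS3 transcripts, which starts the trans-acting siRNAs that limit ARF genes. The guide of miR390b had 11025, 16983, 11206 and 10835 counts, and its star had 7573, 6270, 1736 and 1245. The star was low in both amiR-SEAP1 libraries and the guide was not. The star share of miR390b was 40.7% (95% exact Clopper-Pearson interval 40.01 to 41.4, which covers counting error only) and 27.0% (26.4 to 27.5) in wild type. It was 13.4% (12.8 to 14.01) and 10.3% (9.77 to 10.9) in amiR-SEAP1. On the log2 scale the star over the guide changed by -1.92 ± 0.52 (SE, edgeR adjusted p = 0.456, DESeq2 adjusted p = 0.000586). The change of 5p over 3p kept its direction without any 1 library, between 1.47 and 2.36.

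The star of miR390a had 9542, 8305, 3708 and 3406 counts beside 11047, 17001, 11215 and 10856 of the guide, whose counts are those of the miR390b guide within 22 counts. Its star share was 39.6% ± 9.56 in wild type and 24.4% ± 0.683 in amiR-SEAP1 (SD, n = 2), with a log2 change of star over guide of -1.01 ± 0.49 (SE, edgeR adjusted p = 0.819). The star of miR390a exceeded that of miR390b by 1969, 2035, 1972 and 2161 counts, or 31.0, 28.2, 26.1 and 30.8 CPM of all counted lines. On these 2 scales the excess was nearly constant across the genotypes, while the count of the miR390b star was not. Scaled relative to the other miRNAs (trimmed mean of M-values), the miR390a star had 4870, 4252, 2813 and 2656 CPM. The miR390b star had 3865, 3210, 1317 and 971 on that scale, so the excess was larger in both amiR-SEAP1 libraries there. Whether reads of one star arm were also counted at the other was not tested.

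The remaining silencing precursors, like those of miR390, did not pass edgeR's test of the arm ratio. miR168a had 17060, 19219, 6191 and 6688 guide counts and 7964, 5532, 4026 and 3016 star counts. On the scale of trimmed mean of M-values (TMM), which sets levels relative to the other miRNAs, its guide had a log2 change of -0.90 ± 0.25 and its star of -0.35 ± 0.31 (SE, edgeR adjusted p = 0.122 and 0.640). The star over guide of miR168a changed by 0.56 ± 0.49 and that of miR168b by 1.20 ± 0.48 (edgeR adjusted p = 0.940 and 0.819). miR162a and miR162b, which target the Dicer gene DCL1, had star shares of 2.01% ± 0.689 and 1.91% ± 0.842 in wild type and of 1.99% ± 0.0937 and 2.09% ± 0.369 in amiR-SEAP1 (SD, n = 2). miR403, which targets AGO2, had 4.93% ± 1.43 and 3.46% ± 0.771.

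**Figure D3:**
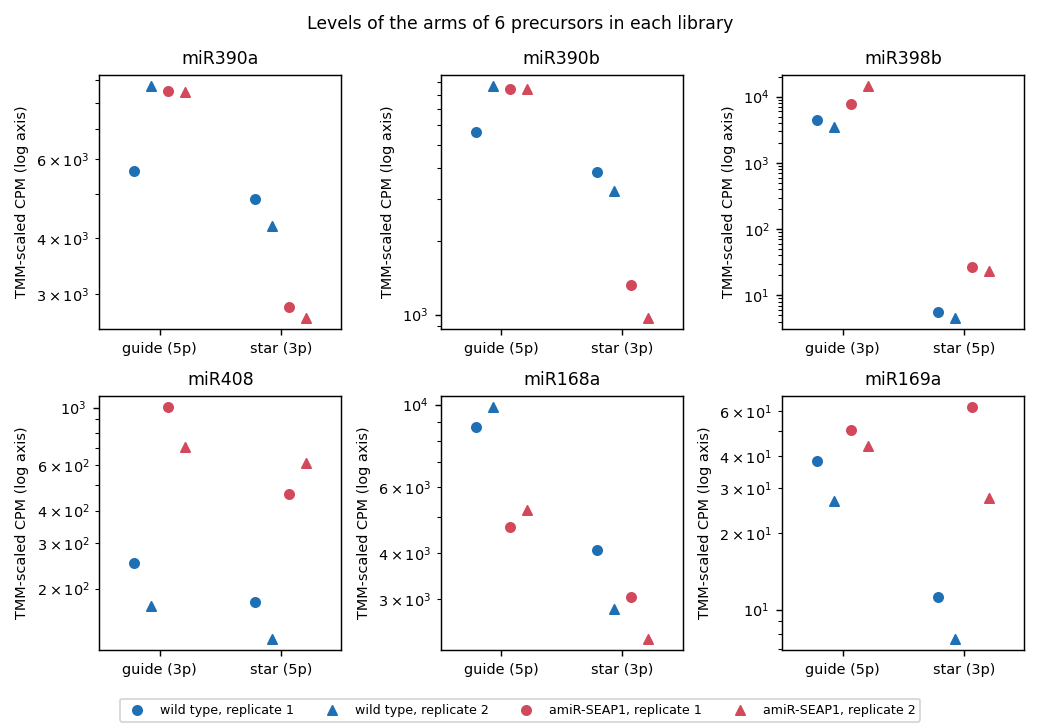
TMM-scaled CPM (counts scaled to a common library size, log axes that differ between panels) of the guide and star arm of 6 precursors, with 1 point per library. Only the star is lower in both amiR-SEAP1 libraries for miR390a and miR390b, whereas both arms are higher for miR398b, miR408 and miR169a.

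Among the families that respond to copper and phosphate, 5 precursors of 3 families, both arms of miR408 and the star arms of miR398b and miR398c rose in amiR-SEAP1. miR408, which targets transcripts of copper proteins such as plantacyanin, had 494, 335, 1322 and 906 guide counts and 347, 250, 612 and 784 star counts. Both amiR-SEAP1 libraries were above both wild-type libraries in each arm. Relative to the other miRNAs the guide rose by 2.01 ± 0.33 and the star by 1.82 ± 0.29 (log2, SE, edgeR adjusted p = 0.0291 and 0.0291). The arm ratio of miR408 changed by -0.19 ± 0.41 for star over guide (edgeR adjusted p = 0.998). Its star share was 41.3% and 42.7% in wild type and 31.6% and 46.4% in amiR-SEAP1, so the amiR-SEAP1 libraries lay on either side of wild type.

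miR398 targets copper/zinc superoxide dismutase transcripts, and its b and c precursors held the same counts in both arms within 1 count, so that they are a single measurement. The miR398b guide had 8734, 6781, 10204 and 18459 counts and its star had 11, 9, 35 and 30. The star of miR398b rose by 2.27 ± 0.35 (log2, SE, edgeR adjusted p = 0.0287) and that of miR398c by 2.25 ± 0.35 (adjusted p = 0.0287), while the guide had a change of 1.48 ± 0.38 (adjusted p = 0.111). The star over guide of miR398b changed by 0.86 ± 0.56 (adjusted p = 0.940), so the arms were not shown to differ. The star share of miR398b, at most 0.342% in any library, rested on few star counts. miR398a, the remaining precursor, had 20, 10, 20 and 34 guide counts and 6, 10, 1 and 2 star counts. Its star over guide had the farthest change from 0 of the 50, -3.23 ± 0.95 (SE, edgeR adjusted p = 0.456). miR399c, which acts on the phosphate regulator PHO2, had 10, 11, 13 and 50 star counts, so that its star was high in amiR-SEAP1 replicate 2 alone.

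The 32 precursors whose guides target developmental transcription factors, of 13 families, had a median star share of 3.57% in wild type and 5.41% in amiR-SEAP1, and a median log2 change of star over guide of -0.02. The star share did not overlap for 7 that were lower and 5 that were higher in amiR-SEAP1, a share near the 32.6% of all 86 pairs. miR169a, which targets NF-YA genes, had 75, 52, 67 and 56 guide counts and 22, 15, 82 and 35 star counts. Its star was above wild type in both amiR-SEAP1 libraries and, in the first, above its own guide. The star share of miR169a was 22.5% ± 0.207 in wild type and 46.7% ± 11.7 in amiR-SEAP1 (SD, n = 2), and star over guide changed by 1.60 ± 0.48 (SE, edgeR adjusted p = 0.456). Its paralogue miR169b lay on the other side, with 38.7% ± 2.85 and 26.1% ± 10.2, and miR169g, the family member with the most counts, had 62.0% ± 20.97 and 77.1% ± 4.09. The precursors of the miR169 family thus had no common direction.

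The star of miR156b had 113, 92, 119 and 88 counts beside 1902, 2222, 1167 and 1140 of its guide. Its star share was 4.79% ± 1.15 in wild type and 8.21% ± 1.48 in amiR-SEAP1 (SD, n = 2; star over guide 0.84 ± 0.35, SE, edgeR adjusted p = 0.819). The other miR156 precursors had lower mean star shares in amiR-SEAP1 than in wild type. miR159b, which targets GAMYB-like genes of the anther, had 14.7% ± 2.74 and 16.3% ± 9.66. miR164b, a regulator of NAC genes of organ boundaries, had 1.48% ± 0.504 and 2.35% ± 1.06, and miR167a, which targets ARF genes of stamens and ovules, had 1.83% ± 0.203 and 1.74% ± 0.566. The genotypes overlapped in miR159b, miR164b and miR167a.

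The 5p star arms of the HD-ZIP III regulators miR165 and miR166 set amiR-SEAP1 replicate 2 apart. miR165a had 2309, 3172, 924 and 4182 star counts beside 56620, 54506, 39228 and 29199 guide counts. miR166a had 804, 1107, 336 and 1342 beside 191316, 188711, 123703 and 81618. The star shares of miR165a, 3.92%, 5.50%, 2.30% and 12.5%, were lowest in one amiR-SEAP1 library and highest in the other. The changes of star over guide, 0.26 ± 1.07 for miR165a and 0.43 ± 1.16 for miR166a (SE, edgeR adjusted p = 0.998 and 0.998), were -1.05 and -0.87 without amiR-SEAP1 replicate 2, and 1.56 and 1.73 without amiR-SEAP1 replicate 1.

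Among the remaining families, miR158a, with 13808, 10199, 7312 and 9205 guide counts and 2637, 1434, 1006 and 747 star counts, had a lower star share in both amiR-SEAP1 libraries (14.2% ± 2.62 against 9.80% ± 3.24, SD, n = 2). Its star over guide changed by -0.63 ± 0.47 (SE, edgeR adjusted p = 0.940). miR391 had 15.5% ± 3.31 and 14.8% ± 3.56. miR394b, which targets the F-box gene LCR of the meristem, had 2, 2, 2 and 4 star counts and 5146, 647, 2713 and 311 guide counts. The guide was higher in replicate 1 of each genotype and the star was near its lower limit throughout.

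Of 95 conserved arms that could be tested for their level, 4 rose and 1 fell in amiR-SEAP1 relative to the other miRNAs (edgeR with TMM scaling, FDR of 0.05), against 4.76% of all 294 miRNAs that rose and 0.34% that fell. The arms that rose were miR398b-5p, miR398c-5p, miR408-5p and miR408-3p, and the arm that fell was miR390b-3p, with a log2 change of -1.63 ± 0.29 (SE, adjusted p = 0.0317). Since miR398b-5p and miR398c-5p are a single measurement, these are 4 distinct calls, 3 of star arms and 1 of a guide. The guide of miR390b changed by 0.24 ± 0.30 (adjusted p = 0.732). None of these calls held in every fit with 1 library left out, which leaves 1 library in a genotype. In those fits the log2 level change ranged from -1.86 to -1.42 for miR390b-3p and from 2.07 to 2.42 for miR398b-5p. It ranged from 1.53 to 2.07 for miR408-5p and from 1.69 to 2.31 for miR408-3p. Divided by all counted lines instead, the median change of the 294 miRNAs was -0.69. Then 3 conserved arms were called higher and 13 lower, against 10 and 29 of all 294 miRNAs. On that scale miR408-5p was not called. A ratio of arms within a library does not contain the library total.

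Over the 45 precursors with both arms tested, guide and star moved to the same side of 0 in 24 and to opposite sides in 21. The median log2 change was -0.15 for 49 guide arms and -0.04 for 46 star arms. miR390b had a guide and a star of opposite sign, whereas both arms of miR408 rose. The star arms of miR169a, with 2.23 ± 0.51, and miR399c, with 2.17 ± 0.70, did not pass the test (SE, edgeR adjusted p = 0.0840 and 0.172).

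**Figure D4:**
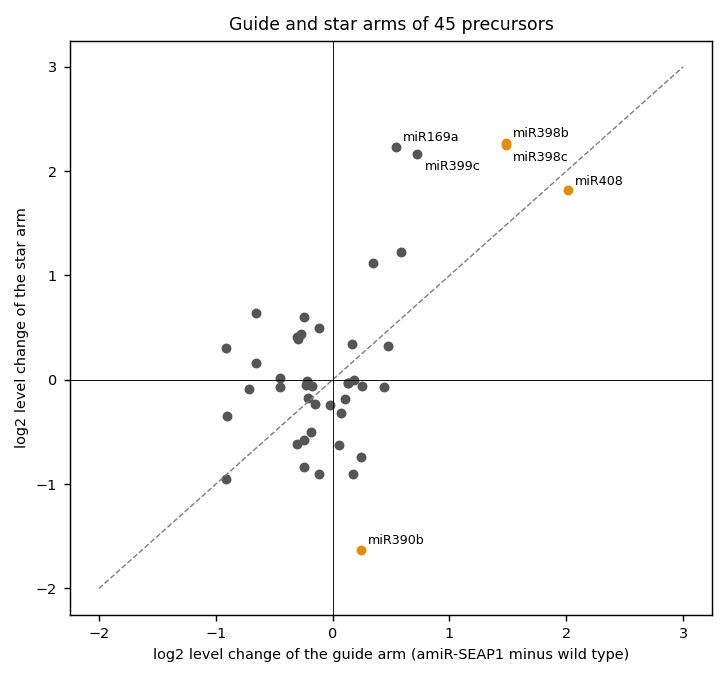
Log2 level change (TMM scale, amiR-SEAP1 minus wild type) of the guide arm on the x axis and of the star arm on the y axis for 45 conserved precursors. Orange points have an arm past the FDR, the dashed line marks equal change, and miR390b lies far below it with a guide at 0.24 and a star at -1.63.

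Some guide arms differed more between replicate 1 and replicate 2 of a genotype than between same-numbered libraries of the genotypes. Of the 100 arms, 5 were at least 2-fold higher in replicate 1 in both genotypes on the TMM scale and 0 in replicate 2. They were miR394b-5p and the guides of miR160a, miR160c, miR393a and miR393b. The miR160 guides shared counts, as did the miR393 guides, so these were fewer than 5 distinct measurements. The 5p guide of miR160a, which targets ARF genes that repress auxin responses, had 15037, 4443, 6759 and 1531 counts, a replicate 1 over replicate 2 fold of 3.37 in wild type and 4.29 in amiR-SEAP1. Its 3p star, with 141, 132, 108 and 174 counts, did not follow. The star shares of miR160a, 0.929%, 2.89%, 1.57% and 10.2%, were therefore highest in the second replicate of each genotype, and miR160c had 1.10%, 3.75%, 1.69% and 8.18%. For miR394b-5p these folds were 7.93 and 8.48, and for miR393a-5p 4.82 and 3.89. The labels do not say what a replicate number stands for.

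**Figure D5:**
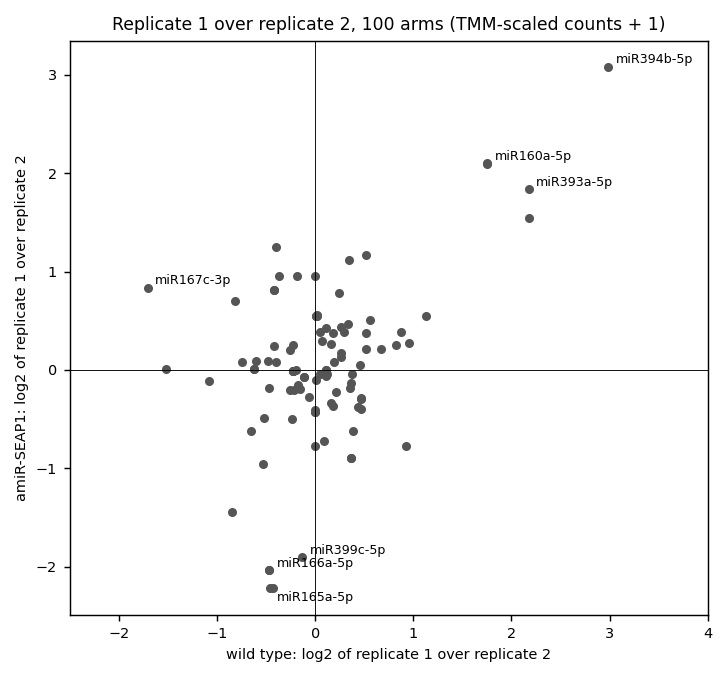
Log2 of replicate 1 over replicate 2 (TMM-scaled, 1 count added) in wild type on the x axis and in amiR-SEAP1 on the y axis, for the 100 arms of the conserved precursors. miR394b-5p, the miR160 guides and the miR393 guides lie at the upper right, and the 5p arms of miR165a and miR166a are low on the y axis alone.

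The transcripts of the precursors were mostly near the lower limit of the mRNA libraries. All 50 names matched a MIR gene, and 11 of these genes averaged 1 FPKM or more in the 8 mRNA libraries. MIR390a lay between 0 and 0.437 FPKM and MIR390b between 0 and 0.277, too low for a comparison with the star arms. MIR408 had 0.863, 0.901, 10.8 and 10.2 FPKM in wild-type replicates 1 to 4 and 2.55, 2.55, 3.95 and 4.17 in amiR-SEAP1. Replicates 1 and 2 and replicates 3 and 4 carry different names in the file headers. MIR408 was higher in amiR-SEAP1 than in wild type among the first and lower among the second, whereas both mature arms were higher in amiR-SEAP1. MIR172b had 4.22, 3.25, 3.83 and 3.26 FPKM in wild type and 1.41, 0.927, 2.16 and 2.01 in amiR-SEAP1, with no overlap. Such a gap, with amiR-SEAP1 on the lower side, was also found for MIR156d, MIR162a and MIR171b, so it was not particular to MIR172b. How many of the 50 MIR genes had a gap in either direction was not counted. The mRNA and small RNA libraries are not paired by the labels, and these values were not tested.

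The 36 other precursors with both arms and at least 20 counts had more equal arms. The median absolute log2 ratio of the arms was 1.40 for them and 4.35 for the conserved precursors, whose pairs also held more counts (a median of 17240 against 144.5 in all 4 libraries). A low count limits how unequal the arms can appear. Shared counts were held by the guide arm of 27 conserved precursors but by the star arm of only 8. Sharing was not examined in the 36 other precursors. The part of low or shared counts in this difference was not tested.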

How the data were processed

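Small RNA libraries were deposited as raw counts per mature miRNA, with lines naming no miRNA that held 96.6% to 98.5% of all counted lines and stayed out of library sizes and tests. The mRNA tables hold FPKM values computed by the authors. HISAT2 and the TAIR10 genome are named in the submitters' processing notes. The sources used here do not name the counter or the annotation. Arms were paired by name, and pairs of at least 20 counts were tested. In edgeR 4.0.16 (R 4.3.3) each precursor had 8 values, 4 libraries by arm, with library, arm and arm by genotype as terms, and p-values were adjusted by Benjamini-Hochberg over all 86 pairs. Levels were tested with edgeR's quasi-likelihood test, TMM scaling and a filter on low counts over 294 miRNAs. DESeq2 1.42.0, a replicate block, other filters and scalings, and each library left out were alternatives. The script was checked on simulated counts. The text names the pair with the most counts in each family, every called arm, the 3 pairs with the fewest counts, and the pairs whose star was the larger arm. Other precursors were named after their values were seen. The members and lists were chosen with earlier results of these data known.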

Additional observations from a re-analysis of the deposited data

How the results depend on the processing

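The count of conserved pairs called for the arm ratio was 1 with DESeq2 and 4 with a replicate block (miR160a, miR169a, miR390b and miR399c). Over all 86 pairs, 1 was called with DESeq2 and 5 with the block. Leaving out any 1 library added no call to the main test. Same-numbered libraries deviated together (r = 0.520 over 294 miRNAs and 0.419 over 86 pairs), but with 2 numbers only the pairing was not established. Family calls stayed at 0 under every alternative run. Conserved arms called higher were 7 with DESeq2 and 11 with the block, against 18 and 38 of all 294 miRNAs. Arms called lower were 13 with all counted lines as library size and 5 with the block, against 29 and 14 of all 294 miRNAs. No level call of the main test held in every fit with 1 library left out. The mean star share in wild type was 14.5% without miR165 and miR166, 7.71% with 1 precursor per sharing group, 5.18% as the median over pairs and 5.25% without miR172, a setting chosen after seeing the data. In amiR-SEAP1 it was 12.2% without miR165 and miR166. The median absolute log2 arm ratio was 3.54 with family sums. With 1 library left out, the log2 change of 5p over 3p ranged from -0.64 to 0.26 for miR408, -0.87 to 1.73 for miR166a, -2.77 to 0.060 for miR160a, -0.35 to 0.55 for miR396a and -1.05 to 1.56 for miR165a. TMM scaling across arms gave -0.28 for miR396a and -0.12 for miR165a. The level change of miR390a-5p and miR390b-5p ranged from -0.039 to 0.52 with 1 library left out, and was -0.43 and -0.43 with all counted lines. The cause of these changes was not tested. Star arms under about 20 counts limit the ratios of miR168b, miR394b and miR398a.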
